A study of Mus musculus with 4 samples.

Results

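The smooth muscle contractile genes are 36 genes that were chosen by name: the smooth muscle actins and myosins, the kinase and phosphatase subunits that act on myosin, the proteins of the thin filament, proteins that anchor the filaments, the oxytocin receptor and 3 regulators. The list is 36 of the 31053 genes in the count matrices. Its rule uses names and no measured value, but the names were chosen with earlier results of these data known. The genes were followed in mammary epithelial cells of 4 FVB mice, all homozygous for a floxed Tfap2c gene and all carrying Krt5-CreERT2. In such mice the recombinase is made under the promoter of Krt5, a keratin of basal cells, and becomes active with 4-hydroxytamoxifen (4OHT). Corn oil, the vehicle, went to 2 mice and 4OHT to the other 2, in a short course of days that began at postnatal week 4. The fourth mammary glands were taken at week 9, weeks after that course. Each mouse gave 1 single-cell library, and the libraries are called corn oil 1, corn oil 2, 4OHT 1 and 4OHT 2. Values given as 4 numbers follow that order.

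Myoepithelial cells form the basal layer of the mammary duct and are built like smooth muscle. Oxytocin, released on suckling, binds its receptor and raises calcium, calmodulin then activates myosin light chain kinase, and phosphorylated myosin pulls on filaments of smooth muscle actin so that milk is pushed out. Calponin, caldesmon, transgelin and tropomyosin decorate the actin filament, myosin phosphatase ends the contraction, and serum response factor with myocardin drives many of the genes in smooth muscle.

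Cells were put into classes without the use of any contractile gene. A cell with at least 1000 UMIs (unique molecular identifiers, each standing for 1 captured transcript) was basal where Krt5, Krt14 and Krt17 together gave at least 4 UMIs and more than 3 times those of Krt8, Krt18 and Krt19. It was luminal where the second sum was at least 5 and more than 3 times the first. Luminal cells were called hormone-sensing where Ly6d, Fxyd2 and Gpx3 gave at least 3 UMIs and more than Wfdc18, Csn3 and Ltf, and progenitor otherwise. The basal class held 1157, 1517, 1062 and 1678 cells, the progenitor class 1311, 1164, 1866 and 1473, and the hormone-sensing class 154, 336, 245 and 452. Summed by list, marker genes outside the rule were highest in the class they name among the 3 epithelial classes. Single markers did not all do so: 1 of the 10 basal markers was slightly lower in basal than in progenitor cells (log2 difference -0.18). Summed over 10 genes with Trp63, Cdh3 and Col17a1 among them, the basal list stood at 981 to 1498 CPM (UMIs per 1000000 UMIs of the class in that library) in the basal class and at 76.5 to 176 CPM in the luminal classes. The progenitor list, with Elf5 and Kit, reached 8269 to 11244 CPM in the progenitor class against 1251 to 2728 in basal cells. The hormone-sensing list, with Prlr and Pgr, reached 1720 to 2791 CPM in its own class. It stood at 48.8 to 70.4 CPM in basal and 280 to 528 CPM in progenitor cells.

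The libraries held 3546, 4323, 4809 and 5545 barcodes and 17351950 to 22017878 UMIs, and any pair of libraries shared 18 to 36 barcodes. Tfap2c, the floxed gene, stood at 393, 269, 258 and 294 CPM in basal cells, where the treated and untreated libraries overlap. A 3′ count cannot tell whether an internal exon was lost, so these values do not check the labels. Markers of pericytes and vascular smooth muscle, the other contractile cells of the gland, summed to 8.98 to 32.7 CPM over 10 genes in the basal class, and 3 or 4 of the 10 were at 0 in each library. In the hormone-sensing class of 4OHT 1 the fibroblast list summed to 1433 CPM, against 54.0 to 241 in the other libraries, and the leukocyte list to 123 CPM against 1.95 to 5.81.

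Together the 36 genes made up 1.57%, 2.08%, 1.62% and 2.04% of all UMIs in basal cells. In progenitor cells they made up 0.362%, 0.366%, 0.656% and 0.416%, and in hormone-sensing cells 0.245%, 0.220%, 0.305% and 0.228%. The lowest basal library was thus above the highest luminal one, and among the progenitor values 4OHT 1 was the highest. Cells with both keratin sets, which the rule leaves unclassed, had member shares of 2.08%, 2.34%, 1.72% and 2.15%. Cell by cell, after each cell was thinned to 2000 UMIs, the median basal cell held 25, 33, 22 and 33 member UMIs, the median progenitor cell 5, 6, 9 and 6, and the median hormone-sensing cell 4, 4, 5 and 4.

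Against progenitor cells, 28 of the 35 members that could be tested were higher in basal cells and 2 were lower (edgeR quasi-likelihood test with library as a block, Benjamini-Hochberg adjusted p under 0.05). Over all 10365 genes tested, 26.4% were called higher and 24.4% lower. The median log2 difference was 1.89 for the members tested and 0.02 for all genes. With a difference of at least 1 on the log2 scale also required, 23 members were higher and 1 was lower, beside 16.1% and 12.3% of all genes. Against hormone-sensing cells, 34 of 35 members were higher and 1 was lower, beside 31.2% and 28% of all 9527 genes tested, and the median was 3.08 against 0.04. The single member outside every test was Myocd.

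**Figure D1:**
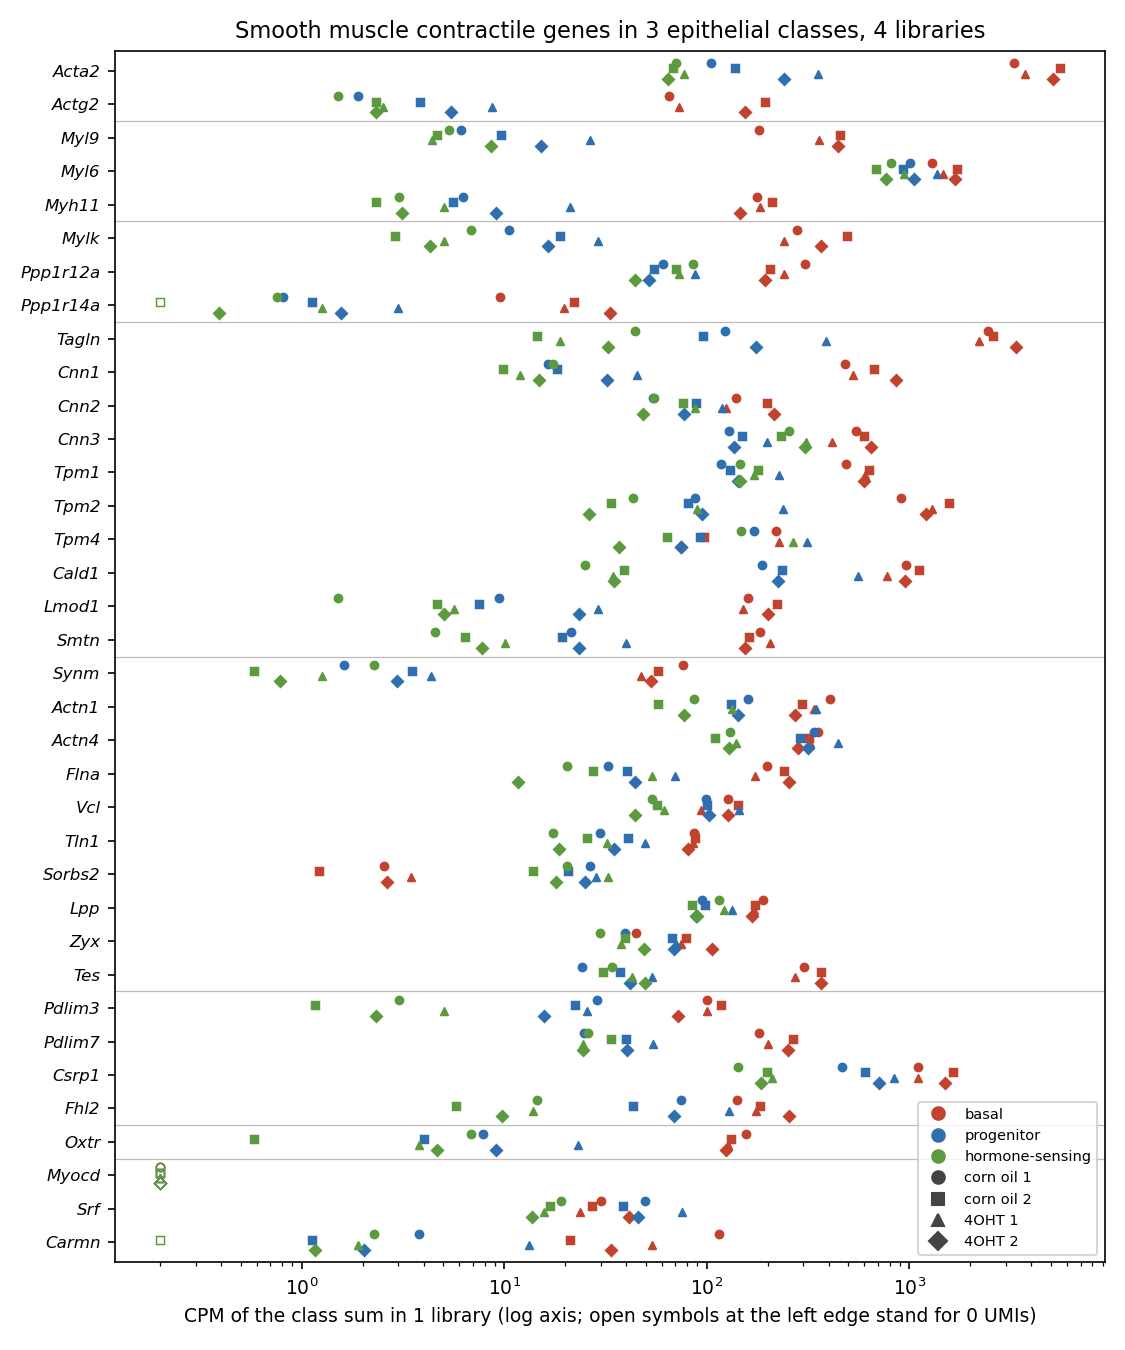
CPM of each of the 36 genes in the basal, progenitor and hormone-sensing classes, 1 point per library, on a log axis, with lines between role groups. For Acta2 the 4 basal points lie between 3281 and 5529.9 CPM and all 8 luminal points between 64.4 and 355, while Sorbs2 runs the other way and Tpm4 overlaps in all 3 classes.

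The 36 genes were also looked up in RefSeq's promoter windows of the mouse assembly GRCm38.p6, which run from 250 bases before to 50 bases after each start, and 31 were found, with 38 windows. The CArG box, the element that serum response factor binds, was searched by its letters, whose consensus is its own reverse complement, so that both strands were covered. It was present in 7 of the 38 member windows (18.4%), which belong to 6 genes, and in 535 of all 32851 windows (1.63%). Of these 6 genes, Myl9, Cnn2 and Fhl2 were higher in basal than in progenitor cells, Srf was lower, and Myl6 and Vcl were not called. A match in these letters is a description of the window and not a measured binding site. The 250 bases before the start are shown for 4 of them, 5′ to 3′ on the gene's strand with the box in capitals, because the same element stands before genes with different outcomes. Myl9 (chr2:156775214-156775463, plus strand) had the largest difference between basal and progenitor cells, Cnn2 (chr10:79988350-79988599, plus strand) and Vcl (chr14:20929148-20929397, plus strand) carry the same letters CCTTATAAGG, and Srf (chr17:46556163-46556412, minus strand) has 2 boxes.
Myl9: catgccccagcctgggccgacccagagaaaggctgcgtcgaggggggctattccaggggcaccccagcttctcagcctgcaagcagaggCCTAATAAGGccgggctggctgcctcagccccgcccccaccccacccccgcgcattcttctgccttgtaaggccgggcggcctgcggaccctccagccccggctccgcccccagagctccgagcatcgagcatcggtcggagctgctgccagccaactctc
Cnn2: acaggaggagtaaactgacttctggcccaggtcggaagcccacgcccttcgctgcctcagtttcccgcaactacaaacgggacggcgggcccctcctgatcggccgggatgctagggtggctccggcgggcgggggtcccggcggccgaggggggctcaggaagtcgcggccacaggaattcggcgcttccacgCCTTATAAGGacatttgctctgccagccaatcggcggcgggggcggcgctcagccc
Vcl: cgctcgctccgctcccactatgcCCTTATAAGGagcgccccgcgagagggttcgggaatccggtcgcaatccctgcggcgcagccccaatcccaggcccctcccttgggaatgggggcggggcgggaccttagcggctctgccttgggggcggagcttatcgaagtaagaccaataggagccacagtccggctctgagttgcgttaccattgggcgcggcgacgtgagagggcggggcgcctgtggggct
Srf: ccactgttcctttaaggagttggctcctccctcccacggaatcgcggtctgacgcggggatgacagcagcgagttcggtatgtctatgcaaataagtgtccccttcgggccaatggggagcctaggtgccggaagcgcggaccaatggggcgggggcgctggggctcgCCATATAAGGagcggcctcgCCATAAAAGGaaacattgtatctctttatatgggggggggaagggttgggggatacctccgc

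Both smooth muscle actins were far higher in basal cells. Acta2 (chromosome 19, 34241090 to 34255590, minus strand, GRCm38) encodes alpha smooth muscle actin and stood at 3281, 5529.9, 3740.4 and 5115 CPM in basal cells. In progenitor cells it stood at 105, 137, 355 and 242 CPM, and in hormone-sensing cells at 70.7, 68.5, 76.8 and 64.4 CPM. Basal libraries were above all luminal ones, and the hormone-sensing values differed little among themselves. The fitted log2 difference was 4.34 (SE 0.30, adjusted p = 1.69e-06, edgeR) against progenitor and 5.96 (SE 0.21, adjusted p = 6.59e-12, edgeR) against hormone-sensing cells. Actg2, the gamma smooth muscle actin of gut and other viscera, had 65.0, 194, 72.8 and 155 CPM in basal cells, 1.90 to 8.66 CPM in progenitor and 1.52 to 2.52 CPM in hormone-sensing cells. Corn oil 2 and 4OHT 2 were the higher pair, and its log2 differences were 4.36 (SE 0.38) and 5.84 (SE 0.27). Without 4OHT 1, whose progenitor value was the highest, the first of these became 5.01.

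Among the myosin genes, Myh11 and Myl9 were called higher in basal cells than in both luminal classes, and Myl6 only against hormone-sensing cells. Myh11, the smooth muscle myosin heavy chain, had 177, 209.6, 183 and 146 CPM in basal cells, 6.23, 5.61, 21.2 and 9.07 in progenitor cells and 2.32 to 5.03 in hormone-sensing cells. Myl9, the regulatory light chain that the kinase phosphorylates, had 181, 455, 356 and 446 CPM in basal cells and 6.09, 9.61, 26.4 and 15.2 CPM in progenitor cells. Corn oil 1 was the lowest library in both classes. The log2 differences from progenitor cells were 4.02 (SE 0.32) for Myh11 and 4.54 (SE 0.28) for Myl9, and from hormone-sensing cells 5.72 (SE 0.24) and 5.98 (SE 0.23). Myl6, the essential light chain shared by smooth muscle and non-muscle myosin, had 1293, 1712, 1472 and 1684 CPM in basal and 931 to 1368 CPM in progenitor cells. Its log2 difference of 0.31 (SE 0.14) from progenitor cells was not called (adjusted p = 0.0952, edgeR), while that of 0.95 (SE 0.16) from hormone-sensing cells was. Within each of the 4 libraries it was higher in basal than in progenitor cells. That difference was called without 4OHT 1 (0.46) and with no filter on low counts (0.29).

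All 3 genes that set the phosphorylation of myosin were called higher in basal cells than in both luminal classes. Over all genes tested, 26.4% were called higher than in progenitor and 31.2% higher than in hormone-sensing cells. Mylk, myosin light chain kinase, had 278, 491, 239 and 365 CPM in basal cells, 10.6, 18.9, 29.0 and 16.4 in progenitor cells and 2.90 to 6.84 in hormone-sensing cells, with log2 differences of 4.03 (SE 0.29) and 6.21 (SE 0.27). On the opposing side, Ppp1r12a, the targeting subunit of myosin phosphatase, had 195 to 306 CPM in basal cells against 52.1 to 87.3 in progenitor cells (1.71, SE 0.16, on the log2 scale). Ppp1r14a, an inhibitor of that phosphatase, had 9.51, 22.0, 19.8 and 33.2 CPM in basal cells against 0.812 to 3.00 in progenitor cells (3.44, SE 0.31). Against hormone-sensing cells, where Ppp1r14a had 0 to 1.26 CPM, its log2 difference of 5.31 (SE 0.47) rests on few UMIs and became 6.03 without 4OHT 1 and 4.64 without 4OHT 2.

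In the thin filament group, 9 of 10 genes were higher in basal than in progenitor cells, beside 26.4% of all genes tested. Against hormone-sensing cells 10 of 10 were higher, beside 31.2% of all genes tested. Tagln, transgelin, an actin-bundling protein of smooth muscle, had 2433, 2597, 2218 and 3377 CPM in basal cells, 123, 96.1, 387 and 175 in progenitor cells and 14.5 to 44.1 in hormone-sensing cells. Its log2 difference from hormone-sensing cells, 6.69 (SE 0.25, adjusted p = 1.15e-11, edgeR), was the largest of the 35 members tested there, beside 3.79 (SE 0.33) from progenitor cells. Tagln overlaps Pcsk7 on the opposite strand, and the strand used in counting is not given in the sources used here. The 3 calponins, which bind actin and slow its sliding over myosin, spread widely. Cnn1, the smooth muscle form, differed by 4.38 (SE 0.27) from progenitor cells, Cnn3 by 1.66 (SE 0.19) and Cnn2 by 0.82 (SE 0.22). Cnn1 had 483, 671, 527 and 859 CPM in basal cells and 9.87 to 45.3 in the luminal classes. Cnn2 lost its call without corn oil 2 and without 4OHT 2.

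The tropomyosins, which lie along the actin filament and gate access of myosin, split in the same way. Tpm2 had 911, 1564, 1293 and 1211 CPM in basal cells and 80.4 to 237 CPM in progenitor cells (3.25, SE 0.27). Tpm1 had 489.5, 633, 605 and 594 CPM against 118 to 228 (1.76, SE 0.16). Tpm4 had 219, 97.1, 228 and 74.8 CPM in basal and 172, 92.6, 314 and 74.9 CPM in progenitor cells, so that corn oil 1 and 4OHT 1 were higher than corn oil 2 and 4OHT 2 in both classes and the classes overlapped. Its log2 difference of -0.20 (SE 0.15) was not called against progenitor cells, and its call of 0.48 (SE 0.20) against hormone-sensing cells (adjusted p = 0.0493, edgeR) was lost without corn oil 1, corn oil 2 or 4OHT 2 and under 4 other settings.

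Cald1, caldesmon, an inhibitor of the actin-myosin ATPase, had 965, 1119.8, 775 and 957 CPM in basal cells, 188, 235, 557 and 224 in progenitor cells and 25.1 to 39 in hormone-sensing cells. It stepped down from class to class, by a log2 difference of 1.62 (SE 0.28) between basal and progenitor cells and of -3.24 (SE 0.22) between hormone-sensing and progenitor cells. Lmod1, leiomodin, which nucleates actin filaments in smooth muscle, had 161, 221, 151 and 202 CPM in basal cells, 9.48, 7.53, 29.0 and 23.3 in progenitor cells and 1.52 to 5.66 in hormone-sensing cells (3.35, SE 0.36, and 5.43, SE 0.24, below basal cells). Smtn, smoothelin, a protein of contractile smooth muscle, had 155 to 204 CPM in basal cells against 19.2 to 39.9 and 4.56 to 10.1 CPM in the luminal classes.

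**Figure D2:**
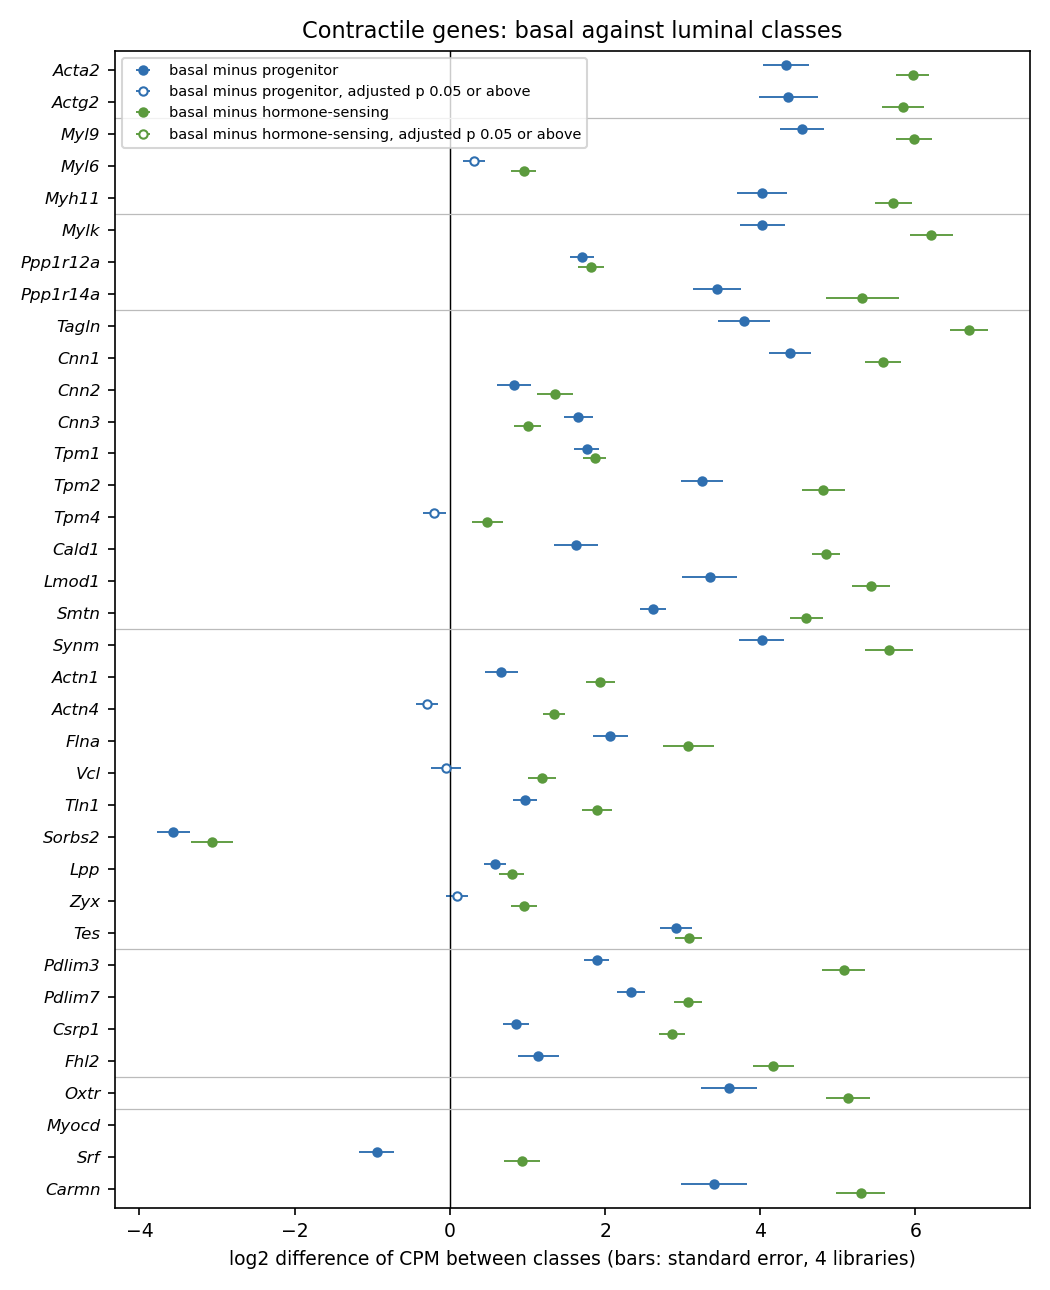
Log2 difference of each member between basal and progenitor cells and between basal and hormone-sensing cells, with standard errors over 4 libraries; open points had an adjusted p of 0.05 or above. Actins, Myh11, Myl9 and Mylk lie between 4.02 and 6.21, most adhesion proteins below 2, and Sorbs2 at -3.57 and -3.07.

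The proteins that anchor and crosslink the filaments were a mixed group. Of 10, 6 were called higher in basal than in progenitor cells and 1 lower, beside 26.4% and 24.4% of all genes tested. Their median log2 difference was 0.62, against 0.02 over all genes. Synm, synemin, an intermediate filament protein that ties desmin and vimentin to adhesion sites, had 76.8, 57.3, 47.5 and 52.8 CPM in basal and 1.62 to 4.33 CPM in progenitor cells (4.02, SE 0.29). Tes, testin, a LIM protein of focal adhesions, had 272 to 368 CPM against 24.1 to 53.5 CPM (2.91, SE 0.21), and Flna, filamin A, 172 to 255 CPM against 32.4 to 69.3 CPM (2.06, SE 0.23). Tln1, talin, which couples integrins to actin, differed by 0.97 (SE 0.15), Actn1, an alpha-actinin, by 0.66 (SE 0.21) and Lpp, a zyxin relative, by 0.59 (SE 0.14). The call of Actn1 was lost without corn oil 1, corn oil 2 or 4OHT 2, and that of Lpp without 4OHT 2. Actn4 (-0.30, SE 0.14), Vcl, vinculin (-0.05, SE 0.19) and Zyx, zyxin (0.09, SE 0.14), were not called against progenitor cells (adjusted p = 0.0970, 0.848 and 0.633, edgeR). Vcl became 0.21 without 4OHT 1 and Zyx -0.036 without 4OHT 2. All 3 were higher than in hormone-sensing cells, by 1.34, 1.19 and 0.95 on the log2 scale.

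Sorbs2 was the clear exception. It encodes an adaptor protein of focal adhesions and Z-bands (chromosome 8, 45507788 to 45827906, plus strand, GRCm38) and had 2.55, 1.22, 3.47 and 2.65 CPM in basal cells, 26.4, 20.7, 28.5 and 25 in progenitor cells and 20.5, 13.9, 32.7 and 17.9 in hormone-sensing cells. Every luminal library was above every basal one. The log2 differences were -3.57 (SE 0.21, adjusted p = 7.59e-07, edgeR) and -3.07 (SE 0.27, adjusted p = 1.13e-07, edgeR). Antisense genes overlap it, among them Sorbs2os.

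The 4 LIM-domain proteins were all higher in basal than in progenitor cells and differed more strongly from hormone-sensing cells. Of all genes tested, 26.4% were called higher than in progenitor cells. Csrp1, a smooth muscle LIM protein that binds alpha-actinin, had 1101, 1648, 1104 and 1492 CPM in basal cells, 466, 602, 839 and 712 in progenitor cells and 142 to 209 in hormone-sensing cells. Fhl2, a LIM protein that also acts as a transcriptional cofactor, had 142, 183, 176 and 256 CPM, then 74.6, 43.3, 128 and 68.8, then 5.81 to 14.4. Pdlim3, which sits on alpha-actinin at Z-discs, had 71.8 to 118, 15.6 to 28.6 and 1.16 to 5.03 CPM in the 3 classes. The steps from basal to progenitor cells were 0.85 (SE 0.17), 1.14 (SE 0.26) and 1.89 (SE 0.16) on the log2 scale for Csrp1, Fhl2 and Pdlim3, and those from basal to hormone-sensing cells 2.87 (SE 0.17), 4.17 (SE 0.26) and 5.08 (SE 0.28). Pdlim7 differed by 2.33 (SE 0.18) and 3.07 (SE 0.18).

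Oxtr, the oxytocin receptor (chromosome 6, 112473683 to 112489943, minus strand, GRCm38), had 157, 131, 127 and 125 CPM in basal cells, 7.85, 4.00, 23.1 and 9.07 in progenitor cells and 6.84, 0.581, 3.78 and 4.68 in hormone-sensing cells. Basal libraries lay close together and far above the others. The log2 differences were 3.6 (SE 0.36, adjusted p = 1.99e-05, edgeR) and 5.13 (SE 0.28, adjusted p = 6.18e-10, edgeR). After thinning to 2000 UMIs, 18.4%, 18.3%, 16.2% and 16.9% of basal cells had an Oxtr UMI (exact 95% intervals within 14.0% to 20.7%). The share was 0.946%, 0.708%, 2.61% and 1.65% of progenitor cells. In hormone-sensing cells it was 0 of 154 and 0 of 332 in the corn oil libraries, which allows up to 1.95% and 0.904%, then 0.415% and 1.13%. Among endothelial-gated cells, which should lack the gene, 1 of 37 in corn oil 2 had an Oxtr UMI and none of 5, 30 and 49 did in the others.

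For Acta2 the thinned shares were 78.5%, 89.4%, 72.8% and 87.7% of basal cells and 12.8%, 14.6%, 17.9% and 15.4% of progenitor cells. In hormone-sensing cells they were 16.2%, 10.2%, 9.54% and 13.2%. In endothelial-gated cells they were 3 of 37 (8.11%), 6 of 30 (20%) and 7 of 49 (14.3%) in the 3 libraries with more than 5 such cells, and among leukocyte-gated cells 1 of 13 and 6 of 15. Over all libraries together, the luminal shares lie within the range of these gated cells, which should not use the gene. Within single libraries this did not always hold, and the gated groups are small. By CPM, without thinning, Acta2 stood at 105, 137, 355 and 242 in progenitor cells and at 50.5, 291, 102 and 220 in endothelial-gated cells. Whether low Acta2 in luminal cells is expression was not tested. Before thinning, median depth was 2942 to 4921 UMIs in basal, 3699 to 5400 in progenitor and 3015 to 3679 in those endothelial-gated cells.

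The 3 regulators did not move together. Carmn, a long noncoding RNA next to the smooth muscle microRNAs miR-143 and miR-145, had 115, 21, 53.7 and 33.6 CPM in basal cells and 3.79, 1.12, 13.2 and 2.03 in progenitor cells. The spread among basal libraries was wide, with corn oil 1 far above the others. Its log2 difference of 3.40 (SE 0.42) became 4.29 without 4OHT 1 and 2.82 without corn oil 1. Srf, serum response factor, was lower in basal than in progenitor cells (29.9, 27.1, 23.8 and 41.2 against 49.3, 38.6, 75.1 and 46.0 CPM, -0.94, SE 0.23, adjusted p = 0.0063, edgeR) and higher than in hormone-sensing cells (13.7 to 19.0 CPM, 0.93, SE 0.23). Its own promoter is the one with 2 CArG boxes. Myocd, myocardin, the cofactor of serum response factor in smooth muscle, had 0 UMIs in every library, which allows up to 0.136 to 0.173 CPM over all cells. Basal cells alone held 4039689 to 5889236 UMIs a library, so the limit within that class is higher. Among the other contraction genes, Mkl1, a relative of myocardin, was higher in basal than in progenitor cells (1.03, SE 0.18) and Mkl2 lower (-0.81, SE 0.21).

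The 2 luminal classes also differed from each other. Of 33 members tested, 28 were lower and 1 was higher in hormone-sensing than in progenitor cells, where 25.7% of all 9651 genes tested were called lower and 25.7% higher. The median was -1.37 against 0.02 over all genes. The largest differences were those of Cald1 (-3.24), Pdlim3 (-3.17), Fhl2 (-3.05) and Tagln (-2.91), and the exception was Cnn3, at 232 to 310.3 CPM in hormone-sensing and 129 to 198 in progenitor cells (0.66, SE 0.12). Counted on luminal cells without a single basal keratin UMI, 28 members passed the filter on low counts and 18 were lower, beside 1800 of all 7705 genes tested. Actg2, Lmod1, Myh11, Oxtr and Synm were no longer tested, Acta2, Myl9, Mylk and Flna lost their calls, and Cnn1, Tpm1, Ppp1r12a, Lpp and Tes turned to 0.31, 0.072, 0.078, 0.051 and 0.25. Where each cell's own keratin set had to exceed the other 10-fold, 31 members were tested and 22 were lower, beside 2473 of all 9296 genes tested. Myl9, Myh11, Cnn1 and Oxtr lost their calls there. Cald1, Pdlim3 and Fhl2 were not among the genes that lost their call in either setting.

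A wider list of 67 contraction genes outside the 36 was mixed, with 58 tested against progenitor cells, of which 29 were higher and 15 lower in basal cells, where 26.4% and 24.4% of all genes tested were. Highest were Vim, vimentin (4.43, SE 0.19), Nexn, nexilin, an actin-binding Z-disc protein (4.10, SE 0.35), and Kcnmb1, a subunit of the smooth muscle calcium-activated potassium channel (4.06, SE 0.58, on 72 UMIs in basal and 5 in progenitor cells). Lowest were Myh14, a non-muscle myosin heavy chain (-3.96, SE 0.26), Myl12b, a non-muscle myosin light chain (-1.83, SE 0.14), and Pdlim2 (-1.48, SE 0.24). The non-muscle actins went the same way, Actb by -0.60 (SE 0.18) and Actg1 by -0.99 (SE 0.18). Against hormone-sensing cells, 38 of 57 tested were higher and 7 lower, beside 31.2% and 28% of all genes tested. The 3 largest fitted differences there were those of Prkg1, Cacna1c and Tns1, but all 3 had almost no UMI in hormone-sensing cells, where a fitted value depends on the prior count, and a lower bound gives no rank. Prkg1, the cGMP-dependent kinase of smooth muscle, and Cacna1c, the L-type calcium channel, had 0 UMIs there and were at least 27.0-fold and 18.1-fold higher in basal cells against 3 counts over the 4 libraries. Tns1, tensin, had 2 UMIs there against 571 in basal cells, a ratio of 104 (exact 95% counting interval 28.7 to 861). Itga1, an integrin subunit named here after its values were seen, had 1 UMI there against 392, a ratio of 142.8 (exact 95% counting interval 25.5 to 5656), and the intervals of Tns1 and Itga1 overlap. Myh14, Pdlim2 and Myl12b were lowest again (-4.35, -2.96 and -2.82). Between the luminal classes, 11 of 51 were higher in hormone-sensing cells, led by Cav1, caveolin (2.94, SE 0.25), Plcb1 (2.04, SE 0.25) and Filip1l (1.85, SE 0.26), and 25 were lower, beside 25.7% of all genes tested in each direction. Itga8, an integrin subunit, had 2 UMIs in hormone-sensing and 317 in progenitor cells, a ratio of 39.3 (exact 95% counting interval 10.8 to 326), and Palld (-2.94, SE 0.20) and Nexn (-2.56, SE 0.52) followed.

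4OHT against corn oil, the series' own comparison, called no member in basal cells. None of the 35 members tested had an adjusted p under 0.05 or an unadjusted p under 0.05 (edgeR, 2 libraries against 2), and DESeq2 called none. Of all 10143 genes tested, edgeR called 0%, and 445 had an unadjusted p under 0.05. DESeq2 called 13 of all genes higher and 24 lower. The members' log2 differences ran from -0.60 to 0.80 with a median of -0.03, 16 of them positive. Acta2 was 0.05 (SE 0.36), Tagln 0.21 (SE 0.32) and Oxtr -0.16 (SE 0.25). The 3 members with the smallest p were Ppp1r14a (0.80, SE 0.50), Zyx (0.60, SE 0.39) and Fhl2 (0.46, SE 0.33). For Ppp1r14a and Zyx, 4OHT 1 lay between the corn oil libraries (basal Zyx 44.7, 78.6, 74.8 and 107 CPM), and the same held for Fhl2. The adjusted p of all 3 was 0.999 (edgeR). Ppp1r14a became 1.60 without corn oil 2. With 2 libraries a group, the p-values measure the spread between single mice.

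In progenitor cells no member was called either, but 34 of 35 log2 differences were positive. Again 0% of all 10195 genes tested were called by edgeR, and 4870 had a positive difference. The members share the same libraries, so their signs are not independent. An unadjusted p under 0.05 was reached by 13 members and by 219 of all genes. DESeq2 called no member, and over all genes 2 higher and 1 lower. The members' median was 0.70 and that of all genes -0.01. Lmod1 (9.48, 7.53, 29.0 and 23.3 CPM) differed by 1.69 (SE 0.32), Acta2 (105, 137, 355 and 242 CPM) by 1.37 (SE 0.29) and Cnn1 (16.4, 18.3, 45.3 and 32.2 CPM) by 1.23 (SE 0.31). In these 3 genes both 4OHT libraries were above both corn oil libraries. The exception in direction was Pdlim3 (-0.24, SE 0.33). All 3 had an adjusted p of 0.9998 (edgeR). Without 4OHT 2, 9 members were called, with Lmod1 and Acta2 among them, and over all 10880 genes tested 55 were higher and 39 lower. Without 4OHT 1 Lmod1 was the 1 member called (1.60), and over all 10618 genes 18 were higher and 35 lower. With no filter on low counts 5 members were called higher, and over all 16517 genes 36 were higher and 21 lower.

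**Figure D3:**
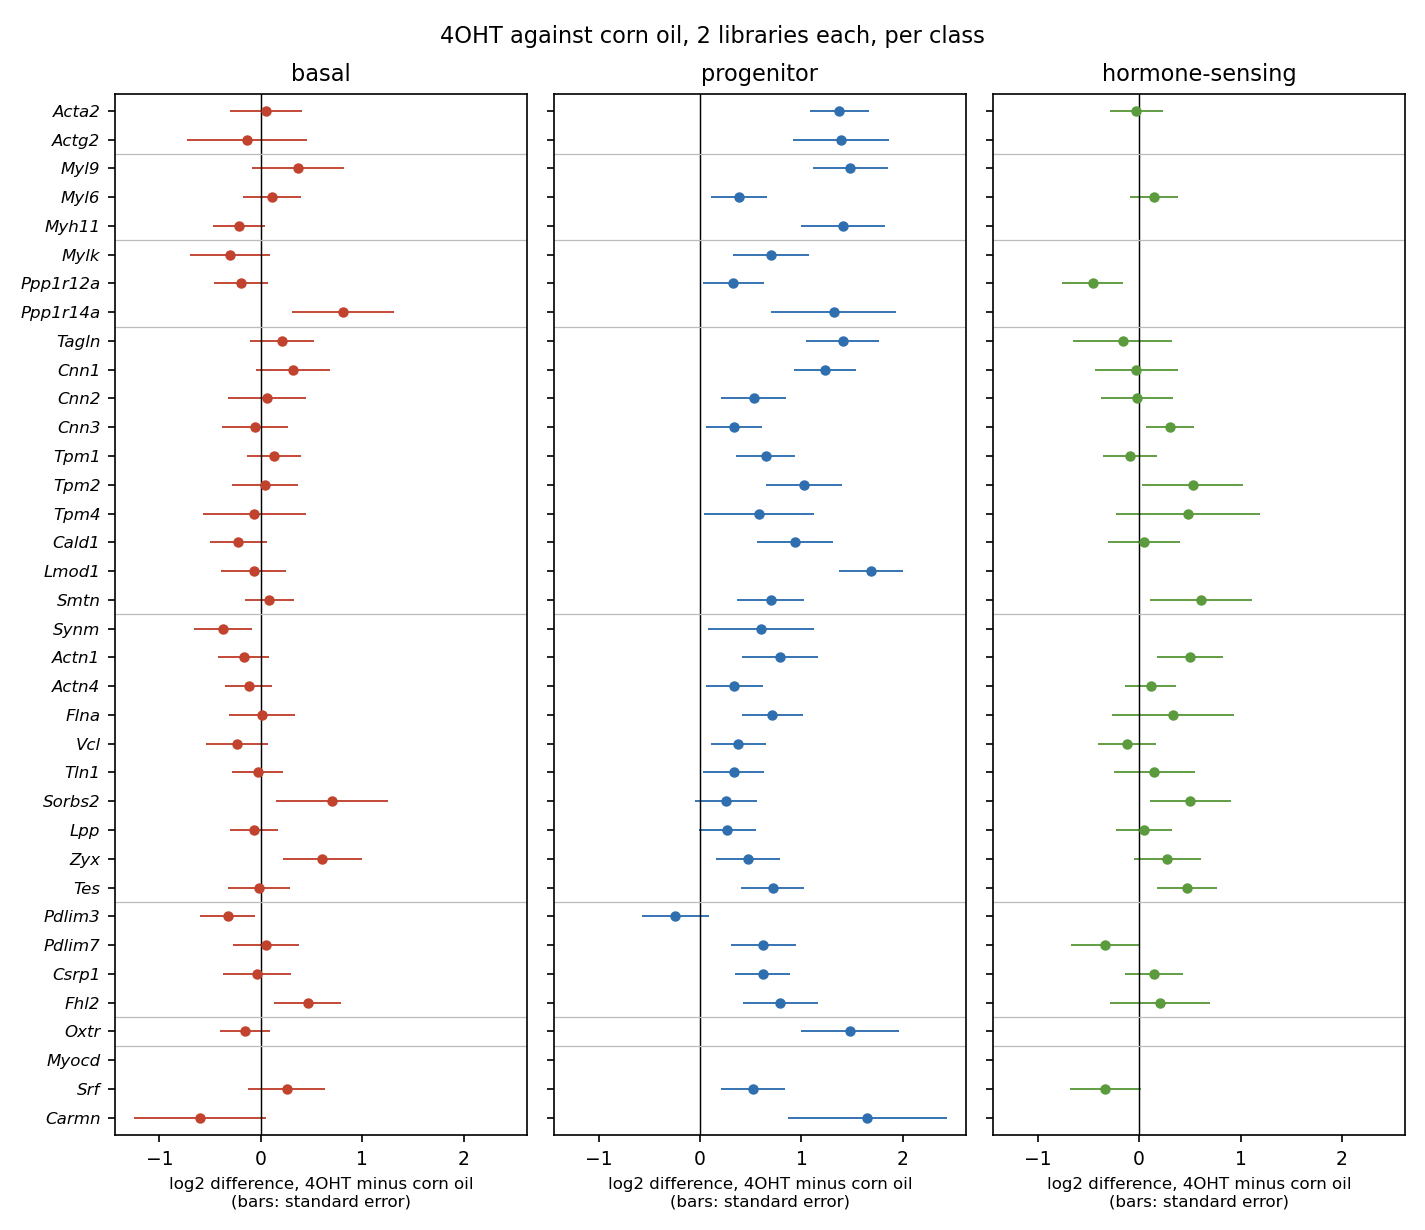
Log2 difference between 4OHT and corn oil for each member tested in basal, progenitor and hormone-sensing cells, with standard errors from the fit on 2 libraries a group. Basal points lie on both sides of 0, from -0.60 to 0.80, and all progenitor points but that of Pdlim3 lie to the right of 0.

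In progenitor cells Acta2 and Tagln were higher where basal keratin UMIs were present. Between 44.4% and 53.8% of progenitor cells held 1 or more UMIs of Krt5, Krt14 or Krt17 within the limits of the class. In those cells Acta2 stood at 135, 202, 601 and 409.8 CPM, and in progenitor cells with none of them at 63.3, 65.5, 67.5 and 62.9 CPM. Tagln stood at 152, 137, 619 and 272 CPM in the first and at 84.5, 51.3, 116 and 72.3 CPM in the second. In the cells without basal keratin UMIs the Acta2 values of the 4 libraries lay close together. They were near those of the whole hormone-sensing class, in which cells with basal keratin UMIs were kept. With both luminal classes limited to cells without such UMIs, Acta2 differed by -0.29 between hormone-sensing and progenitor cells and was not called. The 36 members summed did not lie together there: they came to 3241, 3136, 4978 and 3441 CPM in the cells with none, where 4OHT 1 was the highest, and to 3899, 4134, 7907 and 4830 CPM in the others. With only the cells without basal keratin UMIs kept, a choice made after seeing the data, Lmod1, Acta2 and Cnn1 differed between 4OHT and corn oil by 0.49, 0.093 and -0.00071 on the log2 scale. There 2 of 30 members and 109 of all 8441 genes tested had an unadjusted p under 0.05 (edgeR). With the 10-fold keratin excess the same genes differed by 0.55, 0.17 and 0.31. In that setting 1 of 32 members and 133 of all 9935 genes tested had one. Cald1 differed in that it was high in 4OHT 1 with and without basal keratin UMIs, at 645 and 454 CPM, against 219.7 to 301 and 145 to 168 CPM in the other libraries. Cells with both keratin sets were 15.7%, 11.1%, 21.1% and 20.6% of the barcodes, higher in both 4OHT libraries, and the basal marker list in progenitor cells was 143, 148, 176 and 130 CPM. The part of cell doublets and free RNA in the progenitor values was not tested.

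**Figure D4:**
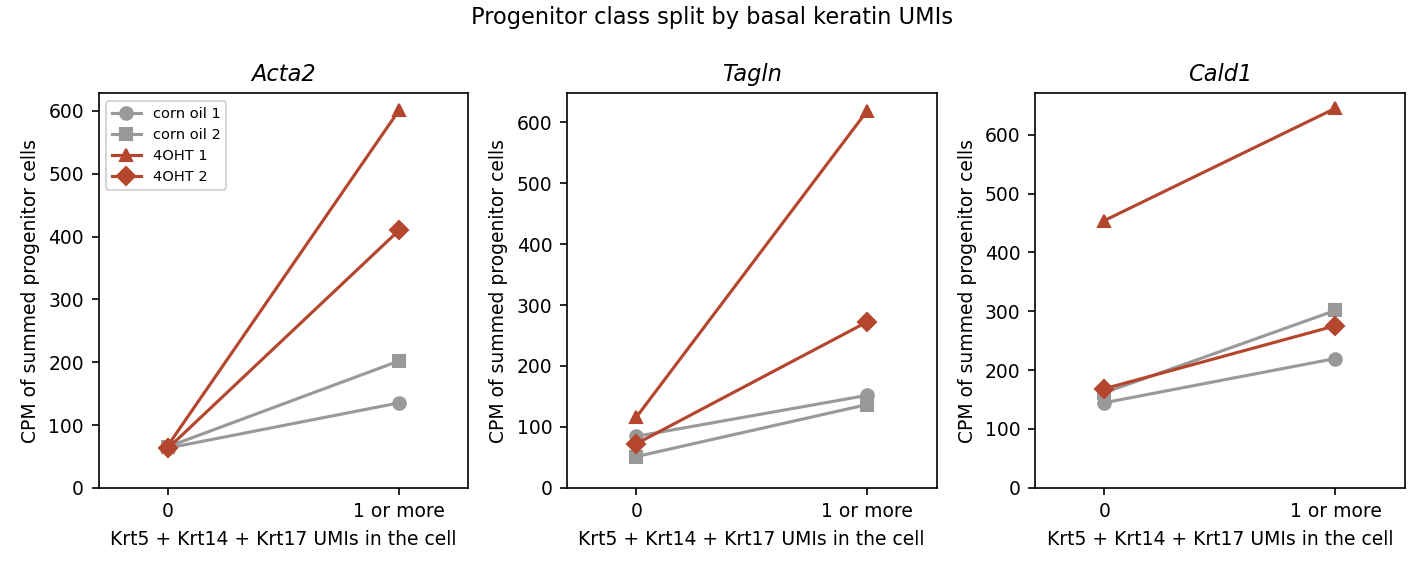
CPM of Acta2, Tagln and Cald1 in progenitor cells with 0 and with 1 or more basal keratin UMIs, 1 line per library, corn oil grey and 4OHT red. For Acta2 the 4 lines start together at 62.9 to 67.5 CPM and spread to 135 to 601 CPM, while for Cald1 the 4OHT 1 line is high at both ends.

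The choice of progenitor cells also set the size of the class difference, but not its direction for the leading genes. Against progenitor cells without basal keratin UMIs, the log2 differences of basal cells were 5.82 for Acta2, 5.70 for Actg2, 4.83 for Tagln, 5.01 for Oxtr and 6.05 for Carmn, and 14 members in all moved by more than 1.5-fold, all of them upward. The counts stayed at 28 higher and 2 lower, beside 2680 and 2362 of all 9589 genes tested. Srf (-0.93) and Sorbs2 (-3.50) hardly moved.

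In hormone-sensing cells 25 members passed the filter on low counts and edgeR called none for 4OHT (0.0131% of all 7637 genes tested were). None had an unadjusted p under 0.05 in edgeR. DESeq2 called no member, and over all genes 7 higher and 0 lower. Tes (0.47, SE 0.29), Actn1 (0.50, SE 0.33) and Ppp1r12a (-0.46, SE 0.30) had the smallest p. Without 4OHT 2, which leaves 4OHT 1 with its fibroblast and leukocyte transcripts as the lone treated library, 1 member was called, and over all 8209 genes 51 were higher and 37 lower. The test of the difference in treatment effect between basal and progenitor cells called no member (0% of all 11266 genes tested), with 14 members and 605 of all genes at an unadjusted p under 0.05. DESeq2 called no member there, and over all genes 2 higher and 1 lower. In 33 of 35 members the difference was negative, with a median of -0.65, led by Lmod1 (-1.78, SE 0.37, adjusted p = 0.307, edgeR). Of all 11266 genes, 5883 were negative, with a median of -0.02. The members share the same libraries, so their signs are not independent. Without 4OHT 2, 14 members were called lower in this test, and over all 11769 genes 16 were higher and 130 lower. With no filter on low counts 8 members were called lower, and over all 17975 genes 21 were higher and 86 lower.

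Across single basal cells the members differed widely in their measured correlation with the others. Each gene's thinned count was correlated with the sum of the other members over 968 to 1362 basal cells per library, as a description, since such cells share library, depth and free RNA. Acta2 had the highest r, 0.71, 0.70, 0.78 and 0.75. Tagln followed with a mean r of 0.62, then Csrp1 (0.56), Cnn1 (0.53), Myl9 (0.52), Myl6 (0.51), Tpm2 (0.49) and Tpm1 (0.44). Myl6 thus varied with the contractile genes inside the basal class although its small difference between basal and progenitor cells was not called. The closest pair was Acta2 and Tagln (0.57). Most adhesion proteins were low, Actn1 at 0.08 and Zyx at 0.09, and the median over 35 members was 0.19. Sparse counts limit r, so a low r does not show that a gene varied apart from the others. On average 81.5% of the thinned basal cells had a UMI of Acta2, 44.5% of Actn1, 12.7% of Zyx and 0.472% of Sorbs2. With thinning to 4000 UMIs, in the deeper cells, the median was 0.25. Fhl2 was the only member below 0, at -0.069, -0.10, -0.18 and -0.19, although its level was higher in basal than in luminal cells.

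**Figure D5:**
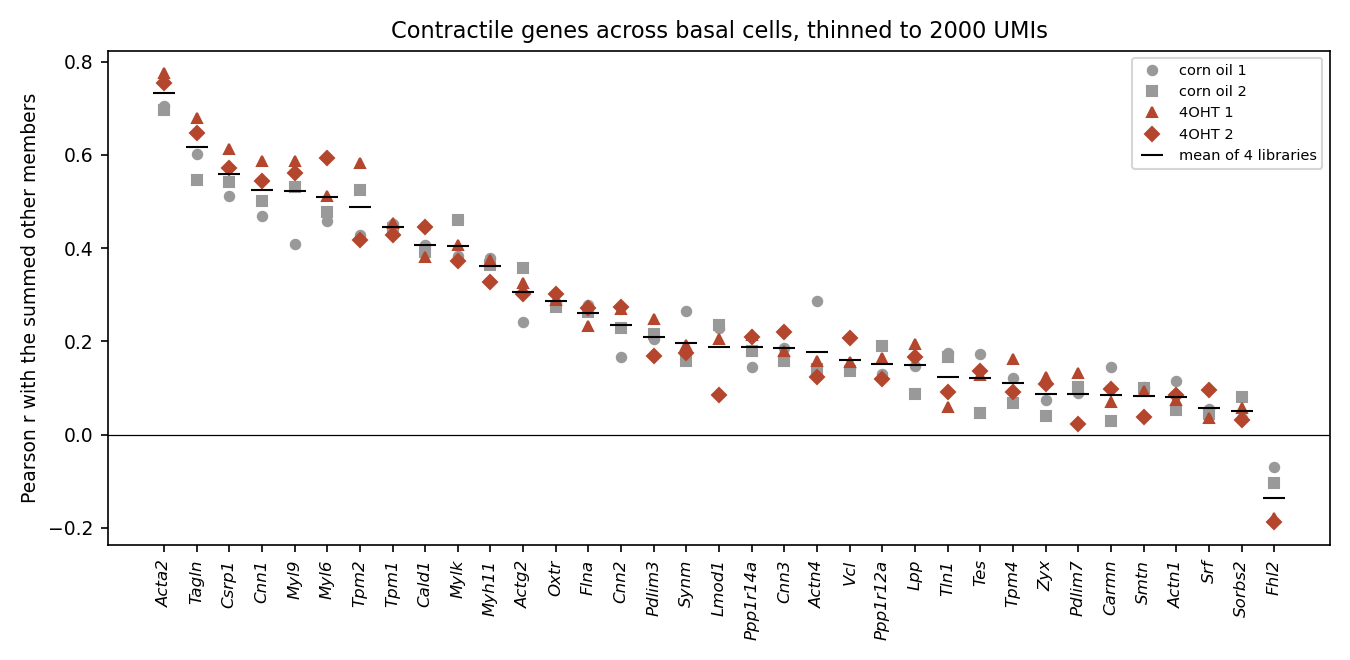
Pearson r of each member with the summed other members across basal cells thinned to 2000 UMIs, 1 point per library and a bar at the mean, in falling order. Acta2 leads at 0.70 to 0.78, and Fhl2 is last, below 0 in all 4 libraries.

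Other genes were ranked by the same measure among 708 genes that were not members and had a UMI in at least 20% of basal cells in every library. The middle of that distribution lay between -0.14 and 0.16 (5th to 95th percentile). Highest were Tmsb4x, thymosin beta 4, which binds monomeric actin (0.46), Dstn, destrin, which severs actin filaments (0.44), Postn, periostin (0.34), Actb (0.34), Sparc (0.32), Apoe (0.29), S100a6 (0.28) and Pfn1, profilin (0.26). Lowest were Sox4 (-0.27), Irx3 (-0.25), Epcam, an epithelial adhesion molecule (-0.24), Slpi (-0.24), H3f3b (-0.23), Malat1 (-0.23), Ddit4 (-0.21) and Eif1 (-0.21). Actb thus went with the contractile genes from cell to cell within the basal class while its level was lower there than in progenitor cells.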

How the data were processed

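The deposited matrices hold raw UMI counts for every gene in every cell. They come from Cell Ranger 3.0.1 on mm10 (GRCm38), per the submitters' processing notes, and the use of strand and introns is not given in the sources used here. The members and gene lists were chosen with earlier results of these data known. Counts were summed per library and class, and CPM are per 1000000 UMIs of that sum. Sums were tested with edgeR 4.0.16 in R 4.3.3 (TMM, filterByExpr, two-sided quasi-likelihood F-test, Benjamini-Hochberg adjustment over all genes tested, threshold 0.05), with library as a block between classes and no block between treatments. Each library, from 1 mouse, was 1 replicate, and p-values measure the spread between these libraries. In counts simulated for each comparison, with 200 genes changed by 2 on the log2 scale, the basal treatment test recovered 96% of the changed genes and the test of the difference in effect 61%. The simulation gave all genes 1 common dispersion and no shared library effect, and changed only genes above a count floor. It therefore does not give the power for smaller changes or for the spread of these libraries. DESeq2 1.42.0 was an alternative. No doublet caller was run: cells with both keratin sets fall outside the classes, and an alternative left out the 5% of cells with the most UMIs. Endothelial and leukocyte gates needed at least 3 UMIs of their markers in cells outside the epithelial classes. Shares used cells thinned to 2000 UMIs, with 0 to 316 shallower cells left out per library and class. Their 95% intervals are exact (Clopper-Pearson), the limit that 0 UMIs allow is set at 3 counts, and both cover counting error only. All 36 members were described by class. For 4OHT the 3 members with the smallest p in each class were named, for the wider list the 3 largest called differences in each direction, and for likeness the 8 highest and 8 lowest genes. Gene positions are those of the GRCm38 annotation.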

Additional observations from a re-analysis of the deposited data

How the results depend on the processing

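In the class comparisons 1277 of 1329 values for single members kept their direction and side of the threshold over all alternatives, 38 lost their call, 3 gained one and 11 turned. Between basal and progenitor cells, leaving out single replicates moved Vcl from -0.22 to 0.21 (the latter without 4OHT replicate 1) and Zyx from -0.036 (without 4OHT replicate 2) to 0.17. Between hormone-sensing and progenitor cells they were 0.13 for Tes with a 10-fold keratin excess, 0.077 for Tpm1 and 0.020 for Ppp1r12a without 4OHT replicate 1, 0.032 for Ppp1r12a without 4OHT replicate 2 (the lowest such values were -0.29 for Tpm1 and -0.26 for Ppp1r12a), and, in luminal cells without basal keratin UMIs, 0.31 for Cnn1, 0.072 for Tpm1, 0.078 for Ppp1r12a, 0.051 for Lpp and 0.25 for Tes. That last setting, chosen after seeing the data, left 18 of 28 members called lower between the luminal classes, beside 1800 of all 7705 genes tested. It also turned Cnn1 under 4OHT in progenitor cells to -0.00071. Members called higher under 4OHT in progenitor cells numbered 5 with no filter on low counts and 0 to 9 when single replicates were left out. The same range was 0 to 1 in hormone-sensing cells, and for members lower in the test of the difference in effect 0 to 14, with 8 when no filter was used. With 1 library left in a group, that library is assumed to vary like the others. The labels do not say that equal replicate numbers share a litter or day. Same-numbered libraries deviated together (r of 0.694 in basal, 0.446 in progenitor and 0.238 in hormone-sensing cells). In both groups replicate 1 was also the deeper library (median 5299.5 and 4242 UMIs a cell against 3619 and 3055). What such libraries share was not tested. With the replicate block 3 members were called higher under 4OHT in progenitor cells, beside 10 higher and 4 lower of all 10195 genes tested. In basal cells the block called 0 members, with 92 higher and 126 lower of all 10143 genes. In hormone-sensing cells it called 0 members, with 4 higher and 0 lower of all 7637 genes. Without the library block between classes 27 members were higher in basal than in progenitor cells, beside 2404 of all 10365 genes tested. The median r over members was 0.25 when basal cells were thinned to 4000 UMIs. The cause of these changes was not tested. Members with few UMIs in luminal cells, such as Carmn and Ppp1r14a, are limited by depth.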
